A study of Mus musculus with 2 samples.

Results

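The circadian clock genes described here are 10 genes chosen by symbol, Arntl, Clock, Npas2, Per1, Per2, Per3, Nr1d1, Nr1d2, Dbp and Ciart, of the 43346 annotated genes in the gene tables. All 10 were found by the GENCODE name of their gene identifier in both libraries. The study sequenced polyA RNA from tissue labelled large intestine of adult C57BL/6J mice, an inbred strain, aged 8 weeks. It holds 1 group of 2 biological replicates, called the replicate 2 and replicate 1 libraries below, each said to come from littermates of both sexes with male and female pooled. No genetic change, treatment or time of day is given in the labels, and both libraries stand under a single donor record, so the values describe levels in the tissue and the distance between 1 library and 1 other. No p-value was computed, and intervals on counts cover counting error only.

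The circadian clock is a feedback loop of transcription that runs in nearly every cell of the body, gut epithelium and gut muscle included. BMAL1, the product of Arntl, pairs with CLOCK or with its paralog NPAS2, binds E-box sequences and switches on the Per, Cry, Nr1d, Dbp and Ciart genes. The PER and CRY proteins and CIART then hold that complex down, and the REV-ERB receptors made from Nr1d1 and Nr1d2 repress Arntl, Npas2 and Clock through ROR elements. In tissues with a running clock, Arntl and Npas2 messages peak at a time of day opposite to that of Nr1d1 and Dbp. The hour at which a tissue is taken thus bears on the level of each.

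Sequences that clock factors are known to bind were searched for close to the start sites. RefSeq promoter windows on GRCm38.p6, the build also called mm10, were matched for 9 of the 10 genes and gave 13 windows, which were searched on both strands from 250 bases before the start to the start. Per2 had no matched window, so its promoter was not searched. The searched letters were the E-box CACGTG, the E-prime box CACGTT, the D-box TTATGTAA or TTACGTAA bound by DBP and its relatives, the ROR motif TAGGTCA or TGGGTCA, and the cyclic AMP element TGACGTCA. The stretches below are shown because they hold the matches, which are in capitals, and each runs 5′ to 3′ on the strand of its gene.
Ciart (chr3:95882237-95882374, minus strand): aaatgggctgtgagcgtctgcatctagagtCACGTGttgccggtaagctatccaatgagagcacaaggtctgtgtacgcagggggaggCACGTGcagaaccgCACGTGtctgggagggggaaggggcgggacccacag
Per1 (chr11:69098753-69098818, plus strand): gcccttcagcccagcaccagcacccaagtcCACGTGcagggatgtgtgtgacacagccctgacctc
Nr1d1 (chr11:98775378-98775435, minus strand): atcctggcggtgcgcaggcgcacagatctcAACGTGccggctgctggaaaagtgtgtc
Per3 (chr4:151044786-151044900, minus strand): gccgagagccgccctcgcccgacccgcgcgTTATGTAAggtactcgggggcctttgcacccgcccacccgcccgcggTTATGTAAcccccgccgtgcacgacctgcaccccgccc
Arntl (chr7:113207530-113207558, plus strand): aaggcagaaagTAGGTCAgggacggaggt

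The Ciart stretch held 3 E-boxes, which begin 116, 58 and 44 bases before the start, and the Per1 stretch held 1, which begins 166 bases before it. E-boxes were thus present in 2 of the 9 matched genes and in 2 of their 13 windows, and 6.02% of all 32851 windows of the same length held one. Nr1d1 had 1 E-prime box, found as its reverse complement AACGTG, where 3.85% of all windows held one. Per3 had 2 D-boxes of the same letters, where 0.931% of all windows held a D-box. No window of a member held a ROR motif before the start, where 5.38% of all windows held one. Arntl held 1 in the 50 bases after its second RefSeq start, in an exon of the gene. With those 50 bases added, 6.45% of all windows held a ROR motif. No cyclic AMP element was found in the member windows, where 1.55% of all windows held one before the start. In GENCODE M21 the Nr1d1 stretch lay outside any gene, the Per1 stretch in an intron of a longer Per1 transcript and the Per3 stretch in an intron of Camta1. The Ciart stretch overlapped the first exon of Ciart by 15 bases and an intron of the antisense gene C920021L13Rik. The windows of Clock, Npas2, Nr1d2 and Dbp held no match, and bases outside the windows were not searched. A match is a run of letters and not a measured binding site.

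Before the levels, 3 facts about the libraries bear on their reading. The annotated genes took 55655330 expected counts in replicate 2 and 48724618 in replicate 1. Of the 5 colonocyte markers, Car1, Aqp8 and Atp12a were below 1 TPM (a deposited level scaled for transcript length and for library depth) in both libraries, at 0.27, 0.04 and 0.01 in replicate 2 and 0.23, 0.04 and 0.01 in replicate 1, which goes against the tissue label. The other 2, which the small intestine also expresses, were present, Guca2a at 1407 TPM in replicate 2 and 1199 in replicate 1, and Slc26a3 at 20.96 TPM in replicate 2 and 43.5 in replicate 1. On the Y chromosome, 4 genes together had 3 expected counts in replicate 2 against 2741 in replicate 1, and Xist, the RNA that silences an X chromosome in females, had 12563 in replicate 2 and 17 in replicate 1, which goes against pools of both sexes. A ratio between the libraries cannot be given without either of them.

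In both libraries 9 of the 10 genes reached 1 TPM, as 56.2% of all protein-coding genes did. Nr1d1, at 26.2 TPM in replicate 2 and 54.2 in replicate 1, was the most abundant member in each library. Ciart was the least abundant, at 0.83 TPM (49 expected counts) in replicate 2 and 0.81 TPM (43 counts) in replicate 1. Placed among the 13512 genes with a mean of at least 1 TPM, the mean level of Nr1d1 stood at percentile 79.4 and that of Per3 at 7.26. Apart from Ciart, a member held between 264 expected counts (Dbp in replicate 1) and 5784 (Nr1d1 in replicate 1).

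**Figure D1:**
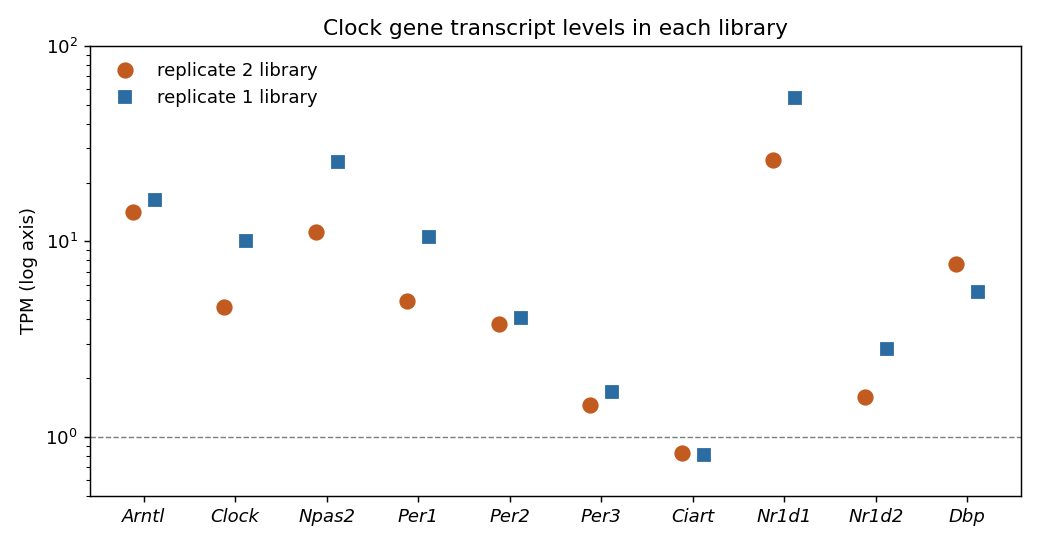
TPM of each clock gene on a log axis, with circles for the replicate 2 library and squares for the replicate 1 library; the dashed line marks 1 TPM. Nr1d1 is highest in both libraries, Ciart lies below the line in both, and Clock, Npas2, Per1 and Nr1d1 show the widest vertical gaps.

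The activators were led by Arntl and Npas2. Arntl (ENSMUSG00000055116.7, chromosome 7, 113207465 to 113314126, mm10) was at 14.2 TPM in replicate 2 (2207 expected counts) and 16.2 in replicate 1 (1931 counts). Npas2 (chromosome 1, 39193731 to 39363236), which can stand in for CLOCK, was at 11.1 TPM in replicate 2 and 25.5 in replicate 1. Clock (chromosome 5, 76209868 to 76304792), which encodes the usual partner of BMAL1, was at 4.61 TPM in replicate 2 and 10 in replicate 1. Both partner genes were thus lower in replicate 2, while Arntl lay nearly level. Npas2 exceeded Clock by nearly the same factor in each library, 2.41 in replicate 2 and 2.55 in replicate 1. Arntl exceeded Clock 3.08-fold in replicate 2 and 1.62-fold in replicate 1.

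Of the Per genes, whose proteins are the negative limb, Per1 (chromosome 11, 69095217 to 69109960) had 4.98 TPM in replicate 2 and 10.5 in replicate 1. Per2 (chromosome 1, 91415982 to 91459324) had 3.76 TPM in replicate 2 and 4.06 in replicate 1. Per3 (chromosome 4, 151003652 to 151044665), the member of the family least needed for rhythm in mice, was at 1.45 TPM in replicate 2 and 1.69 in replicate 1. The ratio of Per1 to Per2 was 1.32 in replicate 2 and 2.59 in replicate 1, and that of Per1 to Per3 was 3.43 in replicate 2 and 6.22 in replicate 1. Per1 thus stood apart from the other Per genes between the libraries. Ciart (chromosome 3, 95878503 to 95882251), also called Chrono, encodes a further repressor of the BMAL1 complex.

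Among the nuclear receptor genes, Nr1d1 (chromosome 11, 98767932 to 98775333) far exceeded its paralog Nr1d2 (chromosome 14, 18204054 to 18239127), which was at 1.59 TPM in replicate 2 and 2.81 in replicate 1. Their ratio was 16.5 in replicate 2 and 19.3 in replicate 1. Dbp (chromosome 7, 45705088 to 45710203), a direct E-box target that encodes a D-box activator, was at 7.63 TPM in replicate 2 and 5.5 in replicate 1. It was the member with the clearest excess in replicate 2, and the ratio of Nr1d1 to Dbp was 3.44 in replicate 2 and 9.85 in replicate 1.

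By mean level and SD over both libraries (n = 2 throughout), Nr1d1 at 40.2 ± 19.8 TPM led Npas2 at 18.3 ± 10.2 and Arntl at 15.2 ± 1.41. Per1 followed at 7.75 ± 3.91 TPM, with Clock at 7.3 ± 3.81 and Dbp at 6.56 ± 1.51. Per2 stood at 3.91 ± 0.212 TPM, Nr1d2 at 2.2 ± 0.863, Per3 at 1.57 ± 0.17 and Ciart at 0.82 ± 0.0141. The library values overlapped between the neighbours Npas2 and Arntl, Per1 and Clock, Clock and Dbp, and Nr1d2 and Per3. Taken without regard to library, these ranges do not order those neighbours. Within each library, Per1 was above Clock and Nr1d2 above Per3. Arntl was above Npas2 and Dbp above Per1 and Clock in replicate 2, and these orders were the other way round in replicate 1.

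Between the libraries, Npas2, Nr1d1, Clock and Per1 were lower in replicate 2, Dbp was higher there, and Arntl, Per2, Per3 and Ciart lay at most 0.16 from the median of all genes on the log2 scale below. In TPM, replicate 2 over replicate 1 came to 0.437 for Npas2, 0.461 for Clock, 0.474 for Per1 and 0.484 for Nr1d1. These 4 of the 9 members with a mean of at least 1 TPM were at or below 0.5 times, where 7.05% of all such genes were. The ratio was 0.566 for Nr1d2, 0.858 for Per3, 0.877 for Arntl, 0.926 for Per2, 1.02 for Ciart and 1.39 for Dbp. After TMM scaling, which moves the median log2 ratio of all genes to 0.01, the log2 ratio of Per2 was 0.06 and that of Ciart -0.01, so that the signs of both turned round, while Per2 lay 0.06 above the median of all genes before that scaling too. The log2 ratio of TPM + 1, replicate 2 over replicate 1, makes low genes look more alike than they are, and its median over all 13512 genes was -0.14. On that scale Npas2 at -1.13 and Nr1d1 at -1.02 lay past a 2-fold difference, and Clock at -0.97 and Per1 at -0.94 just short of it. So 2 of 9 members were at least 2-fold lower in replicate 2, where 4.46% of all genes were, and 0 were at least 2-fold higher, where 1.18% were. The count of 2 rests on the scale, being 4 with a pseudocount of 0.1 TPM and 0 with FPKM, with TMM scaling of the expected counts and with DESeq2 size factors. After TMM scaling the log2 ratio was -0.95 for Npas2, -0.92 for Clock, -0.86 for Nr1d1 and -0.80 for Per1.

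The place among all genes of the 4 members lowest against replicate 1 moved by less than 2 percentage points with TMM scaling. Of all 13512 genes, 3.22% had a lower ratio than Npas2, 4.23% a lower one than Nr1d1, 4.85% than Clock and 5.24% than Per1. After TMM scaling these shares were 3.06% for Npas2, 3.94% for Nr1d1, 3.28% for Clock and 4.71% for Per1. The shares moved more for Dbp, at 94% and after TMM scaling 85.3%, for Nr1d2, at 15.7% and 19.1%, for Per3, at 51.1% and 27.6%, and for Ciart, at 68.3% and 47.4%. Arntl, at 46.1% and 46.7%, and Per2, at 56.4% and 55.8%, kept their places near the middle. The median ratio over the 9 members was -0.56, against -0.14 over all genes, and -0.34 after TMM scaling, against 0.01 over all genes.

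**Figure D2:**
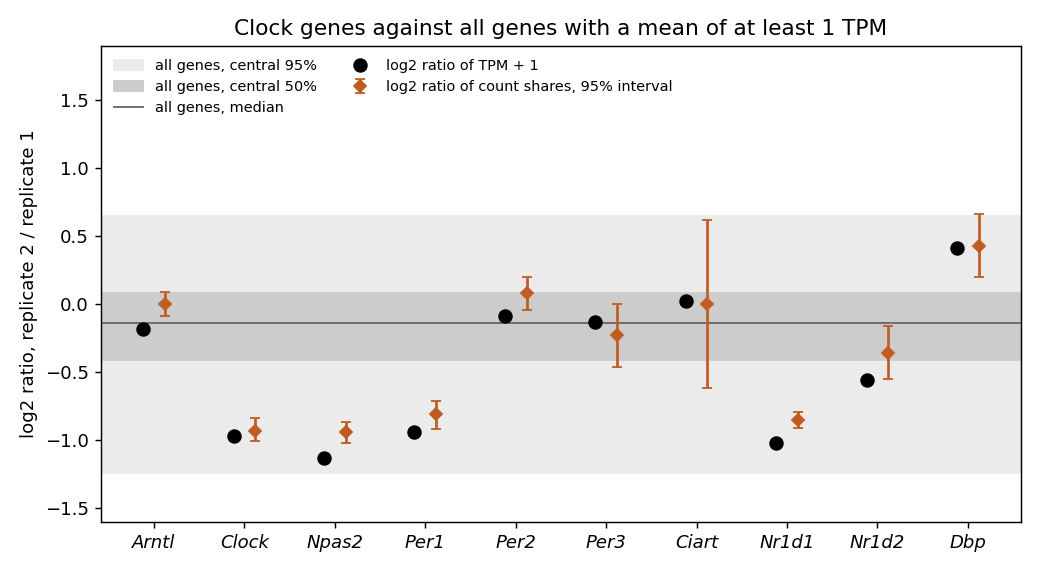
Log2 ratio of replicate 2 over replicate 1 for each clock gene, from TPM + 1 (circles) and from shares of the expected counts (diamonds, bars are exact 95% intervals for counting error), over bands that hold the central 95% and 50% of all genes on the TPM + 1 scale. Clock, Npas2, Per1 and Nr1d1 lie well below the 50% band and inside the 95% band, and Dbp lies above the 50% band.

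Counting error was small beside these distances for the well covered members. As a share of the counts on annotated genes, Npas2 in replicate 2 was 0.52 of its share in replicate 1, with an exact Clopper-Pearson 95% interval of 0.495 to 0.547. The same ratio was 0.526 for Clock (0.497 to 0.557), 0.556 for Nr1d1 (0.533 to 0.579) and 0.57 for Per1 (0.53 to 0.613). It was 0.78 for Nr1d2 (0.681 to 0.893) and 1.35 for Dbp (1.15 to 1.58). For Arntl it was 1.00 (0.941 to 1.06) and for Per2 1.06 (0.973 to 1.15), so no difference was detectable at this depth. Ciart, at 0.998 (0.649 to 1.54), was too thinly covered to place. Of the 9 members, 6 had an interval below 1, where 34.0% of all genes did, the nearest to 1 being Per3 at 0.851 (0.727 to 0.997). Dbp alone had an interval above 1, where 38.2% of all genes did. Differences beyond counting error were thus common among all genes of these libraries, so an interval that leaves out 1 does not by itself set a member apart.

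Transcript length moved with the ratio across all genes, and the members were set against genes of their own length. The median log2 ratio was 0.05 for genes of up to 1000 nt and -0.42 for genes over 6000 nt, with each class in between lower than the one before it. Npas2 lay 0.90 below the median of its length class, Nr1d1 0.87 below, Per1 0.62 below and Clock, the longest member at 7478 nt, 0.55 below. Per2 and Per3 lay 0.24 and 0.19 above the median of genes of 4000 to 6000 nt, and Dbp 0.41 above that of genes of 1000 to 1500 nt. Arntl at -0.03 and Ciart at 0.02 lay on theirs. In its own class, 2.31% of genes had a lower ratio than Npas2, 3.6% than Nr1d1, 4.58% than Clock and 6.29% than Per1, whereas 90.9% had a lower one than Dbp and 80.8% than Per2. What sets the trend with length was not tested.

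**Figure D3:**
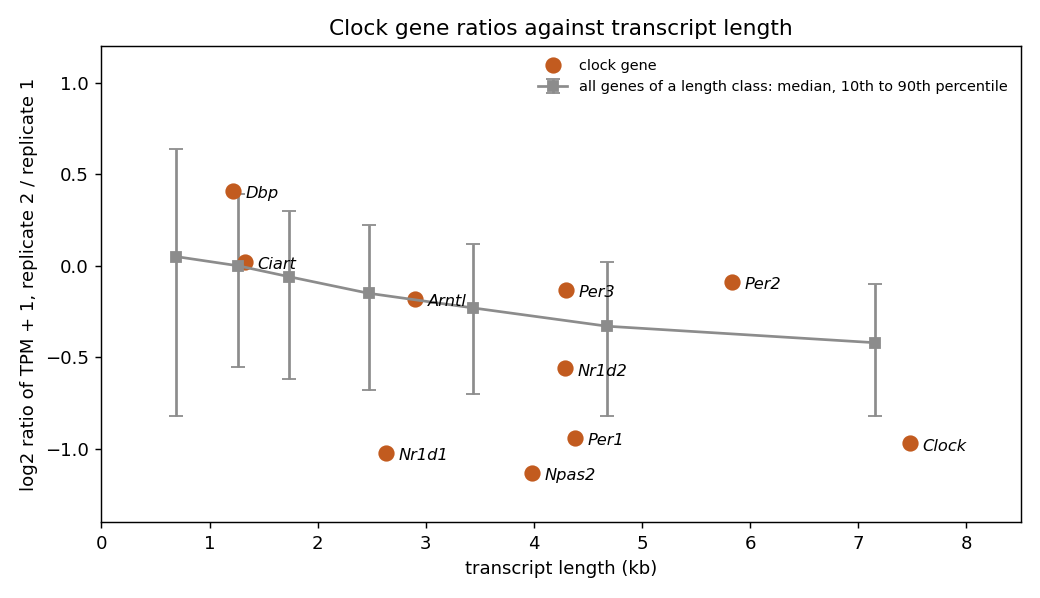
Log2 ratio of TPM + 1, replicate 2 over replicate 1, against transcript length in kb, with grey squares and bars for the median and the 10th to 90th percentile of all genes in a length class, placed at the median length of the class, and circles for the clock genes. The grey medians go down with length from 0.05 to -0.42, and Nr1d1, Npas2, Per1 and Clock lie below the bars of genes of like length.

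Markers of other cells also differed between the libraries. The 6 epithelium markers had a median log2 ratio of -0.59, with summed levels of 7154 (replicate 2) and 8779 TPM (replicate 1). Within that list Vil1 and Krt20 were each at -1.06, Cdh1 at -0.69, Epcam at -0.49, Krt8 at -0.16 and Lgals4 at -0.12. The 5 smooth muscle markers had a median of 0.14 with summed levels of 3026 (replicate 2) and 2633 TPM (replicate 1), although the muscle myosin gene Myh11 was at 46.3 TPM in replicate 2 and 89.6 in replicate 1. The 7 small intestine enterocyte markers had a median of -1.80 and differed both ways, with 5 at least 2-fold lower and 2 at least 2-fold higher in replicate 2. In this tissue labelled large intestine they summed to 6133 TPM (replicate 2) and 3622 (replicate 1). The 2 higher ones were Fabp6, at 5279 TPM in replicate 2 and 477 in replicate 1, and Slc10a2, at 125 and 7.62. Among the 5 lower ones, Lct was at 9.94 TPM in replicate 2 and 152 in replicate 1, and Apoa4 at 91.1 and 1094. These log2 ratios, such as 3.46 for Fabp6 and -3.80 for Lct, were larger than those of any clock gene. Plasma cell markers summed to 9784 TPM (replicate 2) and 19504 (replicate 1), with a median of -0.93. Fibroblast markers summed to 212 TPM (replicate 2) and 192 (replicate 1), with a median of 0.01. Adipocyte markers summed to 88.1 TPM (replicate 2) and 77.2 (replicate 1), with a median of -0.06. Neuron markers summed to 27.2 TPM (replicate 2) and 35.6 (replicate 1), with a median of -0.13. The fibroblast, adipocyte and neuron lists each held genes lower and genes higher in replicate 2, so their sums follow their most abundant genes. In bulk tissue, fewer cells of a type and less RNA per cell cannot be told apart, and the part of these differences in the clock gene values was not tested.

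Levels of opposing arms were also compared within each library. The ratio of Arntl to Nr1d1 was 0.542 in replicate 2 and 0.299 in replicate 1, and that of Arntl to Per1 was 2.85 in replicate 2 and 1.54 in replicate 1. The ratio of Arntl to Dbp ran the other way, at 1.86 in replicate 2 and 2.95 in replicate 1, and that of Arntl to Per2 was close in both, at 3.78 in replicate 2 and 3.99 in replicate 1. Npas2, which is repressed by REV-ERB like Arntl, kept step with Nr1d1, at a ratio of 0.425 in replicate 2 and 0.471 in replicate 1, and so did Clock, at 0.176 in replicate 2 and 0.185 in replicate 1. The E-box targets among the members did not share a direction. Dbp was higher in replicate 2, Per2 was nearly level, and Per1, Nr1d1 and Nr1d2 were lower. Per3 was at 0.858 times its TPM in replicate 1, and Ciart was too thinly covered to place.

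Transcript shares were taken from the percent of the gene's TPM given to each of 33 annotated transcripts. Arntl and Clock have 1 annotated transcript each. The other 8 members had the same leading transcript in both libraries, as did 88.3% of the 6751 genes that have 2 or more transcripts and average 5 TPM or more. Of these 8, Per2, Nr1d2, Per3 and Ciart averaged less than 5 TPM and so fall outside that comparison set. The full-length coding transcript Npas2-201 held 95.4% in replicate 2 and 91.2% in replicate 1, and Nr1d1-201 held 95.8% in replicate 2 and 95.1% in replicate 1. The lower TPM of both genes in replicate 2 lay in these transcripts, since Npas2-201 was at 10.6 TPM in replicate 2 and 23.3 in replicate 1, and Nr1d1-201 at 25.1 TPM in replicate 2 and 51.5 in replicate 1.

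Nr1d2 differed in its transcripts between the libraries. The coding transcript Nr1d2-201 held 100% in replicate 2 and 74.5% in replicate 1, where the retained-intron transcript Nr1d2-202 held the other 25.5%, from 46.5 expected counts. The coding transcript alone was at 1.59 TPM in replicate 2 and 2.09 in replicate 1. Its expected counts, 408 in replicate 2 and 412 in replicate 1, were not scaled for depth, which was greater in replicate 2. Per1 was divided between Per1-201, at 75.8% in replicate 2 and 62.8% in replicate 1, and the shorter coding transcript Per1-202, at 13.1% in replicate 2 and 34.2% in replicate 1. In TPM, Per1-201 was at 3.78 in replicate 2 and 6.6 in replicate 1, and Per1-202 at 0.65 in replicate 2 and 3.59 in replicate 1.

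Most of the Per3 signal was not assigned to a coding transcript. The processed transcript Per3-204, which has no annotated reading frame, held 77.7% in replicate 2 and 56.0% in replicate 1, and the coding Per3-201 held 15.7% in replicate 2 and 34.8% in replicate 1. Per3-201 was at 0.23 TPM in replicate 2 and 0.59 in replicate 1. In Dbp, a transcript of 801 nt that GENCODE M21 no longer lists held 45.9% in replicate 2 and 41.2% in replicate 1, and the coding Dbp-201 held 28.7% in replicate 2 and 38.2% in replicate 1. Dbp-201 was at 2.19 TPM in replicate 2 and 2.1 in replicate 1, so most of the excess of Dbp in TPM lay in the other transcripts. In expected counts, not scaled for the greater depth of replicate 2, Dbp-201 had 199 in replicate 2 and 147 in replicate 1. Ciart-201 held 59.1% in replicate 2 (33.4 counts) and 95.9% in replicate 1 (40.7 counts). With counts this low, the shares of Ciart are uncertain.

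**Figure D4:**
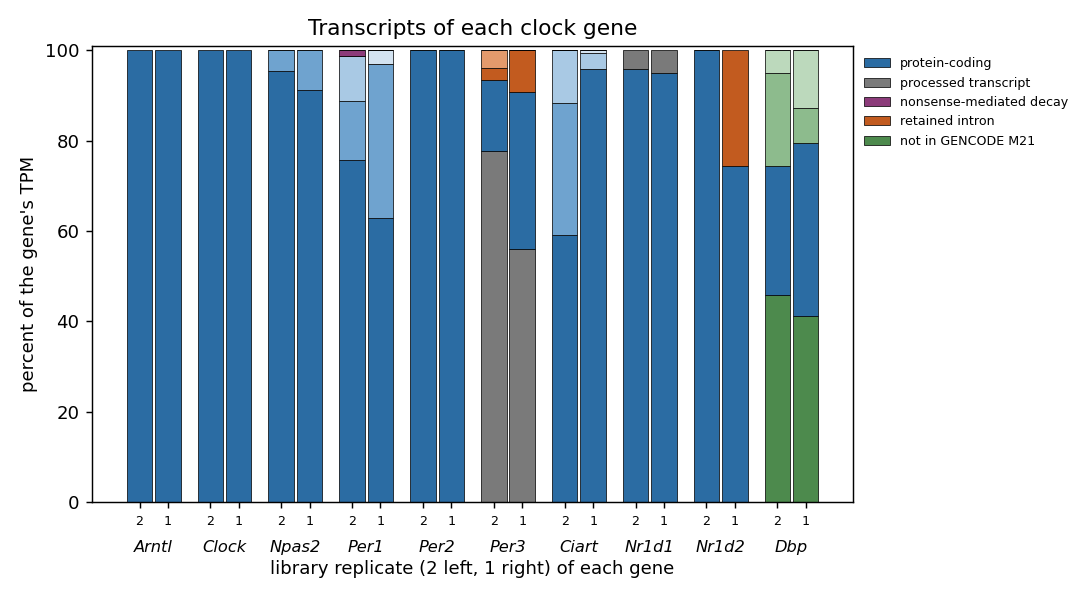
Percent of each clock gene's TPM held by its transcripts, stacked per library with replicate 2 on the left and replicate 1 on the right, and coloured by annotated type. Nr1d2 has a retained-intron part in replicate 1 that is not seen in replicate 2, and Per3 is mostly a processed transcript in both.

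Among leading transcripts, the deposited estimates of the share differed most for Per1, Ciart and Per2. The shares of Per1 and Ciart above are by maximum likelihood. By posterior mean, Per1-201 held 59.4% in replicate 2 and 52.9% in replicate 1, and Ciart-201 held 37.8% in replicate 2 and 55.8% in replicate 1. For Per2 the estimates differed although no expected counts were given to a second transcript. By maximum likelihood Per2-201 held 100% in both libraries, but the posterior mean put 18.8% in replicate 2 and 21.5% in replicate 1 on Per2-202, a processed transcript of 231 nt with 0 expected counts. The deposited bounds on the TPM of Per2 were accordingly wide, 3.56 to 6.38 in replicate 2 and 3.81 to 7.35 in replicate 1. For Clock they were 4.37 to 4.78 in replicate 2 and 9.57 to 10.3 in replicate 1.

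Nr1d1 and Dbp share sequence with an abundant neighbour on the opposite strand. The 3′ end of Nr1d1 overlaps Thra, the thyroid hormone receptor alpha gene, by 1075 nt, and Thra was at 45.8 TPM in replicate 2 and 63.4 in replicate 1. The 3′ end of Dbp overlaps Sphk2, a sphingosine kinase gene, by 737 nt, and Sphk2 was at 42.6 TPM in replicate 2 and 53.5 in replicate 1. The libraries are stranded per the labels, but whether the counting used strand is not stated in the labels or the headers, so reads in these overlaps may be shared. Ciart lies within the span of the antisense gene C920021L13Rik, at 4.56 TPM in replicate 2 and 3.67 in replicate 1, and Per3 within that of Camta1 on its own strand, at 2.99 TPM in replicate 2 and 3.06 in replicate 1. Within the span of Npas2 lie the pseudogenes Gm20428, at 0 TPM in both libraries, and Gm3617, at 0.35 TPM in replicate 2 and 0.2 in replicate 1. Gm45355 in Arntl, and Ube2n-ps1 and Gm43658 in Clock, had no entry to compare.

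Of 19 other genes of the clock 14 reached 1 TPM in each library, and of the 15 with a mean of at least 1 TPM 0 were 2-fold apart either way. Over all genes 4.46% were at least 2-fold lower in replicate 2 and 1.18% at least 2-fold higher. A count of 0 in a list this short thus shows no stability. The median log2 ratio of these other clock genes was -0.24, and 0.00 after TMM scaling. Among the most abundant were the casein kinase gene Csnk1d, at 61.4 TPM in replicate 2 and 58.3 in replicate 1, and the ubiquitin ligase gene Fbxw11, at 26.2 TPM in replicate 2 and 31.2 in replicate 1. The repressor gene Cry1 was at 5.11 TPM in replicate 2 and 4.75 in replicate 1, and Cry2 at 5.61 TPM in replicate 2 and 7.89 in replicate 1. Nfil3, which encodes the D-box repressor and is itself repressed by REV-ERB, was at 12.9 TPM in replicate 2 and 9.43 in replicate 1, a log2 ratio of 0.41, and Tef, a relative of Dbp, was at 4.82 TPM in replicate 2 and 8.55 in replicate 1, a log2 ratio of -0.71.

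Of the 7 clock output genes all reached 1 TPM and 0 were 2-fold apart, with a median log2 ratio of -0.38, and 0.08 after TMM scaling. With 4.46% of all genes 2-fold lower and 1.18% higher, 0 of 7 shows no stability either. Cdkn1a, a brake on the cell cycle, was the highest at 161 TPM in replicate 2 and 173 in replicate 1, followed by the heme synthesis gene Alas1 at 70.5 TPM in replicate 2 and 92.2 in replicate 1. Por, the electron donor of cytochrome P450 enzymes, was at 45.4 TPM in replicate 2 and 85.3 in replicate 1.

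Per1 also answers to glucocorticoids and Per2 to temperature, so genes of those responses were read beside them. Of 6 glucocorticoid responsive genes 1, the kinase gene Sgk1, was at least 2-fold lower in replicate 2, at 27.3 TPM there and 96.5 TPM in replicate 1. The list had a median log2 ratio of -0.70, and -0.66 after TMM scaling. Tsc22d3, which encodes the leucine zipper protein GILZ, was at 40.7 TPM in replicate 2 and 73.4 in replicate 1, and the phosphatase gene Dusp1 at 18.9 TPM in replicate 2 and 25.3 in replicate 1. The list was not of a piece, since Fkbp5, a sensitive glucocorticoid target, was at 14.5 TPM in replicate 2 and 9.6 in replicate 1. Of 6 heat and cold responsive genes 0 were 2-fold apart, where 4.46% of all genes were lower and 1.18% higher. The median of these 6 was -0.05, and 0.34 after TMM scaling. Hsp90aa1 was at 62.0 TPM in replicate 2 and 60.9 in replicate 1, the cold-induced Cirbp at 43.5 TPM in replicate 2 and 47.9 in replicate 1, and Dnajb1 at 25.4 TPM in replicate 2 and 28.7 in replicate 1.

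**Figure D5:**
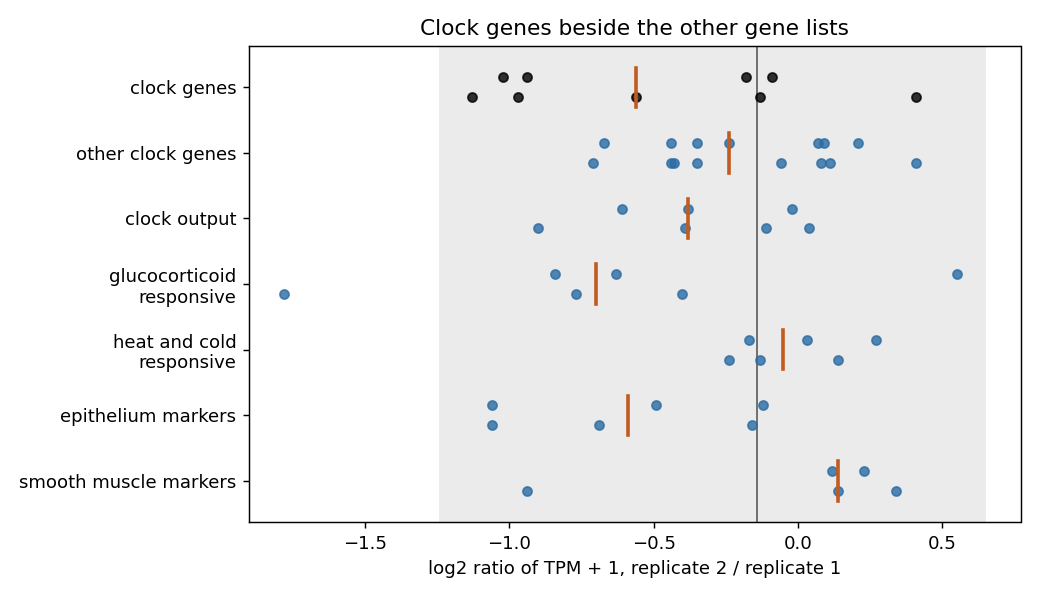
Log2 ratio of TPM + 1, replicate 2 over replicate 1, for the genes of each list with a mean of at least 1 TPM; upright bars are list medians, the vertical line is the median of all genes and the shaded band their central 95%. The clock genes spread from -1.13 to 0.41 and the other clock genes lie closer together.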

How the data were processed

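PolyA RNA-seq of 2 libraries of 1 group was used. The authors deposited, per the file headers, expected counts (estimated, not always whole), TPM and FPKM per gene and transcript, the percent of a gene's TPM held by each transcript, and bounds on TPM, a signal column whose level is not stated. The tables are on mm10 with GENCODE M4, per the deposited notes. An aligner or quantifier was not given in the sources used here. Depth on annotated genes was 55655330 expected counts in replicate 2 and 48724618 in replicate 1.

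Names and positions came from GENCODE M21 by identifier without version, and promoter sequences from RefSeq (GRCm38.p6). TPM was used as deposited, with a pseudocount of 1 and a minimum mean of 1 TPM for ratios. Intervals were exact Clopper-Pearson 95% on rounded counts. With 1 library a side no test was run. The ratio and interval steps were tested on simulated data. Alternatives were a pseudocount of 0.1, posterior means, FPKM, TPM without spike-ins and mitochondrial genes, other minimums, leaving out each library, and rounded counts scaled with TMM (edgeR 4.0.16, genes with at least 10 counts) or DESeq2 1.42.0 size factors in R 4.3.3. Tables and intervals were made with scipy 1.17.1, pandas 2.3.3 and numpy 2.4.6 under Python 3.11.15, and figures with matplotlib 3.10.9.

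The members and lists were chosen with earlier results of these data known. All members were named, and of the lists of other clock, clock output, glucocorticoid and temperature genes those 2-fold apart among genes past the minimum and the 3 highest, of which 1 is not reported here. Cell type marker lists were given as counts, medians and sums. Cry1, Cry2, Nfil3, Tef, Fkbp5, Vil1, Krt20, Cdh1, Epcam, Krt8, Lgals4, Myh11, Fabp6, Slc10a2, Lct, Apoa4, Guca2a, Slc26a3, Car1, Aqp8, Atp12a and Xist were named after their values were seen. The comparison by transcript length was also chosen after seeing the data. Splice junctions and contigs, on mm9, and protein sequences were not used here.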

Additional observations from a re-analysis of the deposited data

How the results depend on the processing

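Of 225 values under an alternative setting, 175 moved by less than the limit set for them and 0 of the called values changed sign. Means, transcript shares and ratios within a library all counted as unmoved with 1 library left out. That outcome was fixed, since each of 2 values lies within their SD of the mean, and it shows no stability. The mean of Npas2, 18.3 TPM, became 11.1 without replicate 1 and 25.5 without replicate 2. The count of 2 members at least 2-fold lower in replicate 2 became 0 with FPKM, with TMM and with DESeq2 size factors, and 4 with a pseudocount of 0.1 TPM, since these members lie near the limit. Among all genes the 603 lower in replicate 2 became 907 with a pseudocount of 0.1 TPM, 356 with TMM and 357 with DESeq2 size factors, and the 159 higher became 102 at a mean of at least 5 TPM, where fewer genes were counted. Members detected in both libraries numbered 4 at a minimum of 5 TPM, and 9 in replicate 2 alone and 9 in replicate 1 alone. With a pseudocount of 0.1 TPM, or with no filter on low values, 1 of the other clock genes was 2-fold lower. The ROR motif was found in 1 member when the 50 bases after the start were added, where 6.45% of all windows held one. The small ratio of Per2 was -0.09 as reported and 0.06 with TMM, and that of Ciart 0.02 and -0.01. No paired analysis was possible because there is 1 group and no second arm to pair. A ratio between libraries cannot be had with 1 library left out. Depth limits Ciart, whose 49 counts in replicate 2 and 43 in replicate 1 fix neither its ratio nor its transcript shares.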
